A study of Mus musculus with 46 samples.

Results

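The genotype by stage interaction at the passage of mouse thymocytes from the double-negative 3 (DN3) to the double-positive (DP) stage was measured in 12 bulk RNA-seq libraries, chosen by their labels from the 46 samples of the series, of which 40 are RNA libraries. The libraries fall into 4 groups of 3: sorted DN3 and sorted DP primary thymocytes of wild-type C57BL/6 mice, and the same sorted stages of C57BL/6 mice with the genotype hCD2-LMO2 knock-in, in which LMO2 is named together with the human CD2 control elements that are used to drive genes in T cells. No age, sorting gate or transgene sequence was given in the labels used here, and nothing in them says that the 3 libraries of a group came from separate animals, so p-values measure only the spread between these libraries. For each gene the interaction is the transgenic minus wild-type difference in DP minus the same difference in DN3, on the log2 scale. It is also the step from DN3 to DP in transgenic cells minus the step in wild-type cells, so a positive value means that the transgenic step went further up, or less far down, than the wild-type one.

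DN3 thymocytes depend on Notch signals and on the pre-T-cell receptor, a complex of a rearranged T-cell receptor beta chain, the Ptcra chain and CD3. Signalling through it starts a burst of division, after which the cells express CD4 and CD8, silence much of the Notch and progenitor programme and recombine the alpha chain locus as DP cells. LMO2 is a LIM-domain protein that does not bind DNA itself and bridges E proteins, TAL1 or LYL1 and GATA factors. It is known in T cells as an oncogene of T-cell acute lymphoblastic leukaemia that keeps thymocytes in a progenitor-like state.

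The deposited counts summed to between 21771319 and 28597594 per library. Levels below are CPM, counts scaled to a common library size, and ± is a standard error of a log2 value. Cd4 and Cd8a, the coreceptor genes that define DP cells, were between 1910 and 3813 CPM in the 6 DP libraries and between 2.72 and 68.6 CPM in the 6 DN3 libraries. Mouse Lmo2 was 26.3, 20.6 and 19.6 CPM in transgenic DN3 replicates 1 to 3 against 0.294, 0.224 and 0.215 in wild-type DN3. In DP it was 81.6, 72.5 and 0.397 CPM in the libraries labelled TG_DP replicates 1, 2 and 3, against 0.483, 0.119 and 0.238 in wild-type DP. The library labelled TG_DP replicate 3 therefore goes against its genotype label. It is the third value wherever 3 transgenic DP values are given, is called the doubted library below, and interactions are given with and without it. Transgenic DP replicate 2 stood apart in another way: Cpa3, a gene of DN3 and of mast cells, was at 26.9% of its transgenic DN3 mean there, against 0.541% in replicate 1 and 0.0107% in the library labelled replicate 3, and Lyl1 was at 32.5%, 3.21% and 1.25%. Of 9 mast-cell and basophil markers, 6 (Mcpt8, Ms4a2, Fcer1a, Cma1, Tpsb2 and Mrgprb1) were below 0.5 CPM in every library, and the summed list was 734 to 1241 CPM in transgenic DN3, 73.1 to 126 in wild-type DN3, 5.30 to 219 in transgenic DP and 2.70 to 3.76 in wild-type DP. Fewer cells of a type and less RNA per cell cannot be told apart in bulk libraries.

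Over the genes that switch in wild type, the transgenic steps were smaller. Of 12451 genes tested, 1738 (14%) rose and 2203 (17.7%) fell at least 2-fold from wild-type DN3 to wild-type DP, with a Benjamini-Hochberg adjusted p under 0.05 by the quasi-likelihood test of edgeR, which was used throughout. With no fold minimum and all 12 libraries, 55.1% of the genes passed for the wild-type step and 42% for the transgenic one. For the genotype difference 28.1% passed in DN3 and 6.27% in DP. That gap depended on the doubted library. Without it, of 12685 genes, 2287 were higher and 1914 lower in transgenic DN3, and 2176 and 1770 in transgenic DP. The median log2 step of the genes that normally rise was 1.63 in wild type and 1.05 in transgenic cells, and that of the genes that normally fall was -1.80 and -1.13. The genes were chosen by their wild-type step, so these medians are a description. In transgenic cells 70.7% of the normally rising and 68.1% of the normally falling genes still passed the test in the same direction. Across the 12451 genes, which are not independent and share libraries, the steps of the 2 genotypes had a Pearson correlation of 0.731 and a Spearman rank correlation of 0.706. With the doubted library left out, the median steps were 1.64 and 1.03 for 1797 rising genes and -1.82 and -1.11 for 2333 falling genes, 67.1% and 62.9% passed in the same direction, and the correlations were 0.691 and 0.66.

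**Figure D1:**
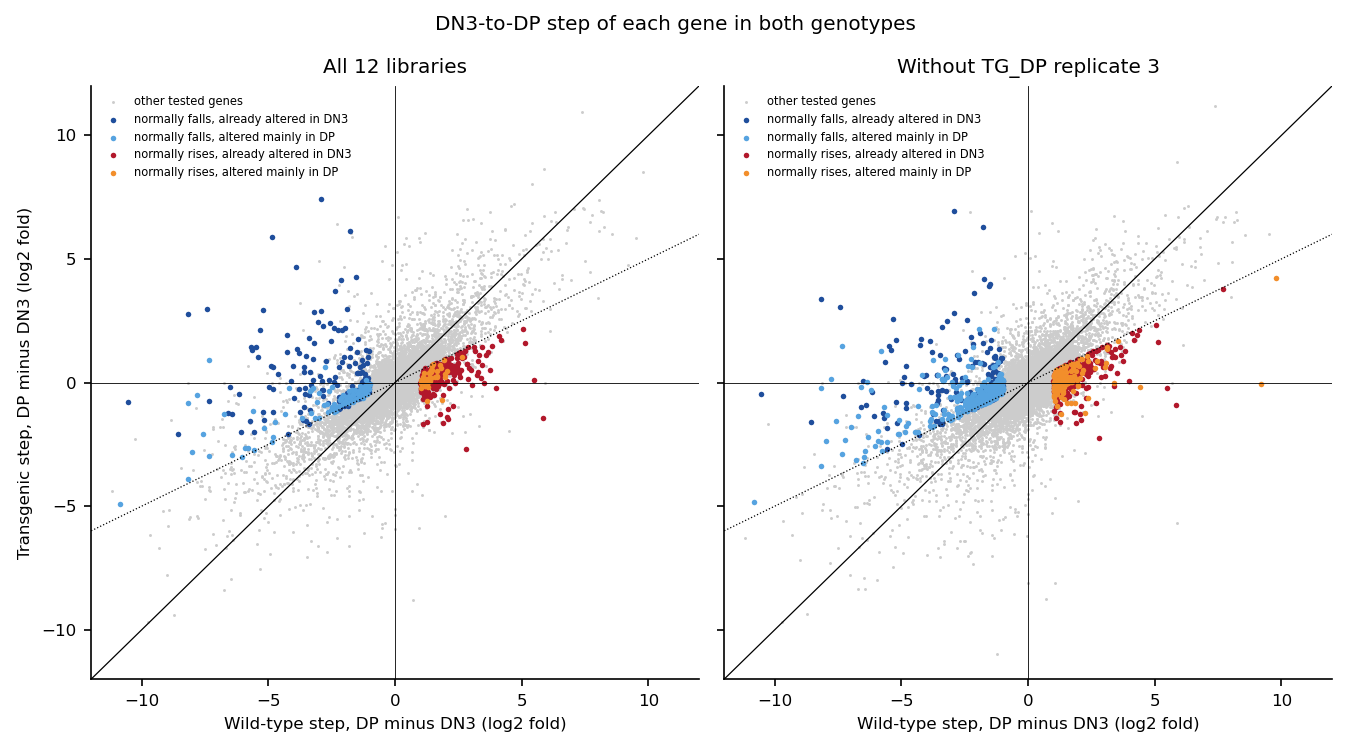
Each point is 1 of the 12451 genes tested with all libraries; the x axis is the wild-type and the y axis the transgenic log2 step from DN3 to DP, with all 12 libraries (left) and without the library labelled TG_DP replicate 3 (right, where 1 gene lies beyond the axes). Coloured genes failed to switch; the solid line marks equal steps and the dotted line 0.5 of the wild-type step.

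The interaction passed the test for 1266 genes (10.2% of those tested), 607 of them higher (4.88%) and 659 lower (5.29%). Without the library labelled TG_DP replicate 3 it passed for 2598 of 12685 genes (20.5%), 1384 higher (10.9%) and 1214 lower (9.57%). Of the 1266, 719 opposed a wild-type step of at least 2-fold, 45 went along with one, and 502 had no such step. The split between directions depended on the scaling: upper-quartile factors gave 1076 higher and 527 lower and moved the median interaction of all genes by 0.115 on the log2 scale, while RLE factors gave 513 higher and 711 lower. The count also depended on single libraries. It was 364 without wild-type DN3 replicate 1, 2009 without replicate 2 and 352 without replicate 3; 589 and 555 without wild-type DP replicates 2 and 3; 539, 655 and 607 without transgenic DN3 replicates 1, 2 and 3; and 759 without transgenic DP replicate 1.

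A gene was said to fail to switch when its wild-type step passed the test and was at least 2-fold, its interaction passed with the opposite sign, and its transgenic step was under 0.5 of the wild-type one on the log2 scale or went the other way. There were 589 such genes (4.73% of all tested): 304 that normally rise (17.5% of 1738) and 285 that normally fall (12.9% of 2203). Without the library labelled TG_DP replicate 3 there were 1042 (8.21%), 442 that normally rise (24.6%) and 600 that normally fall (25.7%), and 570 genes stood in both sets, 96.8% of the first and 54.7% of the second. Upper-quartile scaling gave 222 that normally rise and 518 that normally fall. The rule requires a wild-type step and an opposing interaction that share the wild-type libraries, so these are counts and not tests. The transgenic step of 39 of the 589 genes passed the test in the opposite direction.

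The failing genes split into 4 classes by where the genotypes were further apart. Among genes that normally fall, 187 were already altered in DN3 (the transgenic minus wild-type difference was larger in DN3 than in DP) and 98 were altered mainly in DP. Among genes that normally rise, the counts were 265 and 39. Both classes altered mainly in DP were larger without the library labelled TG_DP replicate 3: 366 genes that normally fall and 138 that normally rise, against 234 and 304 already altered in DN3. With only transgenic DP replicate 1 in its group, 403 genes were altered mainly in DP and 407 already in DN3. The genes found in the same class with and without that library were 158 of 187 and 98 of 98 that normally fall (already altered in DN3, then mainly in DP), and 249 of 265 and 37 of 39 that normally rise.

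**Figure D2:**
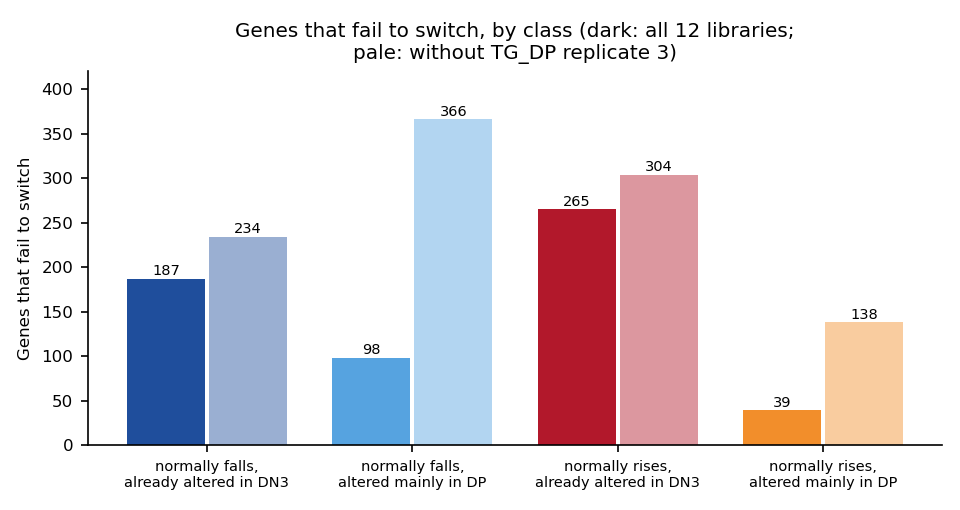
Bars count the genes that fail to switch, on a linear axis from 0, in 4 classes; dark bars use all 12 libraries (187, 98, 265 and 39 genes) and pale bars leave out the library labelled TG_DP replicate 3 (234, 366, 304 and 138). The classes altered mainly in DP are the ones that differ most between the fits.

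Notch3 and Dtx1 were high in transgenic DP replicates 1 and 2 but near wild-type DP in the doubted library. Ptcra and Bcl11a had already been low in transgenic DN3 cells. Promoter sequences are shown for these 4 genes, on which the following results turn. They are the 250 bases before the RefSeq start site, on the gene's strand, in build GRCm38.p6: Notch3 (gene 18131) at chr17:32166891-32167140, Ptcra (gene 19208) at chr17:46763713-46763962 and Dtx1 (gene 14357) at chr5:120711670-120711919, all on the minus strand, and Bcl11a (gene 14025) at chr11:24080445-24080694 on the plus strand. Capitals mark the core letters TGGGAA that RBPJ, the DNA-binding partner of Notch, recognises, and the E-box CANNTG of E proteins, each searched on both strands; no base lay in both motifs.
Notch3: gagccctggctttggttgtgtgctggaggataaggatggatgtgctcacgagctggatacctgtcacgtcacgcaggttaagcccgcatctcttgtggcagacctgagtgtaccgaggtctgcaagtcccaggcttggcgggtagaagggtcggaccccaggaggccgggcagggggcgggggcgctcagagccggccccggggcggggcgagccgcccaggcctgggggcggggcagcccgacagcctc
Ptcra: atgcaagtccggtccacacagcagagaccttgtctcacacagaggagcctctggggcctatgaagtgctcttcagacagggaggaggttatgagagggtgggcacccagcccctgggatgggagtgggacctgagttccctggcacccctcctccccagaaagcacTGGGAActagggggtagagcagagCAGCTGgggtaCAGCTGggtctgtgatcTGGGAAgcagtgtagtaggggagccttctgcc
Dtx1: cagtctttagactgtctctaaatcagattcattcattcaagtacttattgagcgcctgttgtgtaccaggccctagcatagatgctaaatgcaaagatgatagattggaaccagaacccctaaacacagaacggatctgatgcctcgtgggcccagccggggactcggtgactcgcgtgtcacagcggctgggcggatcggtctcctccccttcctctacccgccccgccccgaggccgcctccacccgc
Bcl11a: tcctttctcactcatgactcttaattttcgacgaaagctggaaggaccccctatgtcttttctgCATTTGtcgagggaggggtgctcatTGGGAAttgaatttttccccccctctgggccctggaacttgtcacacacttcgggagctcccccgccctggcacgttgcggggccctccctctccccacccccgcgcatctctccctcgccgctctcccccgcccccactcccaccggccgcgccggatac
The Ptcra window held 2 RBPJ cores, whose first bases lay at -84 and -32 from the start site, and 2 E-boxes at -60 and -49. The Bcl11a window held 1 core at -161 and 1 E-box at -186, and the Notch3 and Dtx1 windows held neither motif in these 250 bases. Of 32851 RefSeq promoters cut to the same length, 21.6% held the core and 66.2% an E-box, so the matches are a description.

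The genes that normally fall and were already low in transgenic DN3 cells included the progenitor regulator Bcl11a and the cell-cycle inhibitor gene Cdkn1a. The lists that hold them were mixed in DN3. Of 17 DN3 and early progenitor regulators, 4 were higher and 5 lower in transgenic DN3 (15.9% and 12.2% of all genes). Of 15 CDK inhibitors and p53 targets, 4 were higher and 1 lower. Bcl11a, a zinc-finger repressor needed in lymphoid progenitors, was 12.8, 15.9 and 17.1 CPM in wild-type DN3, 0.0353, 0.0354 and 0.111 in transgenic DN3, 0.0483, 0.159 and 0.0397 in wild-type DP and 0.229, 0.878 and 0.433 in transgenic DP. All 3 transgenic DN3 libraries were far below the wild-type ones, at a few reads each, and all 3 libraries labelled transgenic DP, the doubted one included, were above wild-type DP. The Bcl11a interaction was 10.39 ± 0.86 (adjusted p = 0.000123, edgeR's quasi-likelihood test), the largest among the genes ranked, and 10.48 ± 0.90 without the library labelled TG_DP replicate 3. Its wild-type step was -7.43 ± 0.60 and its transgenic step 2.96 ± 0.64.

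Cdkn1a, which encodes the cell-cycle inhibitor p21, was 69.1, 54.6 and 58.9 CPM in wild-type DN3 and 3.22, 1.66 and 0.516 in transgenic DN3. In DP it was 1.83, 1.71 and 0.993 CPM in wild type and 4.78, 17.0 and 2.16 in the libraries labelled transgenic, which all lay above the wild-type ones, the doubted one least. The interaction was 7.47 ± 1.06 (edgeR adjusted p = 0.00256), with a wild-type step of -5.33 ± 0.79 and a transgenic step of 2.13 ± 0.71. Cdh1, which encodes the adhesion molecule E-cadherin, was 39.4 to 52.3 CPM in wild-type DN3, 1.52 to 4.39 in transgenic DN3, 0.145 to 0.357 in wild-type DP and 1.30 to 3.05 in transgenic DP. Its interaction was 6.57 ± 0.64 (edgeR adjusted p = 0.000237): the wild-type step was -7.33 ± 0.52, while the transgenic step of -0.76 ± 0.40 did not pass the test. Casp1, the inflammasome protease, was at 12.4 to 15.1 CPM in wild-type DN3 and no higher than 0.413 CPM in the other 9 libraries, with an interaction of 6.35 ± 1.06 (edgeR adjusted p = 0.00471). Leaving out the doubted library gave 7.92 ± 0.86 for Cdkn1a, 6.79 ± 0.62 for Cdh1 and 6.57 ± 1.17 for Casp1 (edgeR adjusted p = 0.000523, 9.25e-05 and 0.00444).

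Ptcra, the pre-T-cell receptor alpha chain, ran in opposite directions in the genotypes. It was 214, 185 and 202 CPM in wild-type DN3 and 42.6, 36.3 and 34.4 in wild-type DP, but 15.4, 37.8 and 16.7 CPM in transgenic DN3 and 145, 125 and 49.9 in transgenic DP. The genotypes did not overlap at either stage, and the library labelled TG_DP replicate 3 was the nearest to wild-type DP. The wild-type step was -2.41 ± 0.40 and the transgenic step 2.20 ± 0.40, both past the test, and the interaction was 4.60 ± 0.56 (edgeR adjusted p = 0.00105; 4.94 ± 0.42 without that library). Spib, an ETS-family factor of early thymocytes, had an interaction of 4.02 ± 0.60 (edgeR adjusted p = 0.00256), with 39.2 to 51 CPM in wild-type and 8.28 to 11.5 in transgenic DN3. Mef2c, a factor of lymphoid progenitors, had 3.37 to 4 CPM in wild-type DN3 against 0.0353 to 0.177 in transgenic DN3, and an interaction of 6.07 ± 0.78 (edgeR adjusted p = 0.00105). Cd3g, a signalling chain of the T-cell receptor, was 1061 to 1322 CPM in wild-type DN3, 362 to 421 in transgenic DN3, 457 to 502 in wild-type DP and 471 to 605 in transgenic DP. Thus the DP levels of Cd3g overlapped and the DN3 levels did not, and the interaction was 1.72 ± 0.20 (edgeR adjusted p = 0.000667). Leaving out the doubted library gave 4.44 ± 0.38 for Spib, 5.71 ± 0.78 for Mef2c and 1.76 ± 0.21 for Cd3g.

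The genes that normally rise and were already high in transgenic DN3 cells numbered 265 with all libraries and 304 without the doubted one. Ptpn14, a protein tyrosine phosphatase, was 10.8, 10.4 and 7.55 CPM in wild-type DN3, 273, 244 and 272 in transgenic DN3, 116, 100 and 109 in wild-type DP and 341, 347 and 95.7 in transgenic DP. Transgenic DN3 was above wild-type DP in every library, and in DP the library labelled TG_DP replicate 3 lay just below the wild-type range while the others lay above it. The wild-type step was 3.50 ± 0.39, the transgenic step -0.01 ± 0.35, and the interaction -3.51 ± 0.52 (edgeR adjusted p = 0.00252). Adcy9, an adenylyl cyclase, was 1.14 to 1.65 CPM in wild-type DN3 and 27.0 to 41.2 in transgenic DN3, against 18.9 to 24.6 in wild-type DP and 16.0 to 33.9 in transgenic DP. Its interaction was -4.21 ± 0.41 (edgeR adjusted p = 0.000237). Tes, a LIM-domain protein of focal adhesions, went the opposite way in transgenic cells: it was 91.1 to 155 CPM in transgenic DN3 and 45 to 54.6 in transgenic DP (15.1 to 19.8 and 50.4 to 80.1 in wild-type DN3 and DP). The Tes step was -1.25 ± 0.22 in transgenic and 1.79 ± 0.22 in wild-type cells, and the interaction -3.05 ± 0.31 (edgeR adjusted p = 0.000301). The interactions without the doubted library were -3.12 ± 0.22 for Ptpn14, -3.93 ± 0.31 for Adcy9 and -2.98 ± 0.33 for Tes.

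Several members of this class act close to the T-cell receptor. Cd6, a coreceptor-like surface protein, was 28.1, 29.3 and 28.7 CPM in wild-type DN3, 157, 158 and 188 in transgenic DN3, 443, 317 and 334 in wild-type DP and 496, 233 and 441 in transgenic DP. Rasgrp1, which activates Ras below the receptor, was 154 to 204 CPM in wild-type and 485 to 565 in transgenic DN3, and 1093 to 1163 and 727 to 1277 in wild-type and transgenic DP. For both genes the DN3 groups were apart and the DP groups overlapped. The interaction was -2.45 ± 0.34 for Cd6 and -1.71 ± 0.28 for Rasgrp1 (edgeR adjusted p = 0.0015 and 0.00412). Cd2, an adhesion and costimulatory receptor, was 5.21 to 8.34 CPM in wild-type and 24.1 to 51 in transgenic DN3, with an interaction of -2.23 ± 0.43 (edgeR adjusted p = 0.0101). The human CD2 elements are part of the transgene name; whether its sequence adds to the mouse Cd2 count was not tested. Ikzf1, the lymphoid factor Ikaros, had a smaller interaction of -1.05 ± 0.21 (edgeR adjusted p = 0.0121), which was -0.97 with adjusted p = 0.0505 without wild-type DN3 replicate 3. The interactions without the doubted library were -2.55 ± 0.36 for Cd6, -1.89 ± 0.27 for Rasgrp1, -2.09 ± 0.45 for Cd2 and -1.11 ± 0.22 for Ikzf1.

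Of the 28 genes of the proximal T-cell receptor signalling list, 20 rose from DN3 to DP in wild type and 18 in transgenic cells, against 27% and 21% of all genes tested. The interaction passed as lower for 9 and as higher for 1, against 5.29% and 4.88% of all genes, with a median of -0.23 (0.047 over all genes); without the doubted library the counts were 10 and 3, against 9.57% and 10.9%. In DN3 itself 13 of the 28 were higher in transgenic cells (15.9% of all genes) and 3 were lower (12.2%). In DP edgeR's test passed none with all libraries (4.1% and 2.18% of all genes), with 3 higher and 2 lower at an unadjusted p under 0.05. DESeq2 passed 1, lower, and limma voom 16 higher and 3 lower. Without the doubted library edgeR's test passed 3 as higher and 2 as lower in DP, against 2176 and 1770 of 12685 genes. The 7 that failed to switch were Cd3g, which normally falls, and Fyn, Zap70, Rasgrp1, Prkcq, Cd2 and Sh2d1a, which normally rise. Of all genes that normally rise or fall at least 2-fold, 17.5% and 12.9% failed. Without the doubted library 7 also failed, with Lcp2 in place of Zap70, against 24.6% and 25.7% of such genes. In that fit the Zap70 step was 2.08 in wild type and 1.07 in transgenic cells. The calls for Fyn, Zap70 and Sh2d1a depended on single libraries. All 3 calls were lost when wild-type DN3 replicate 3, transgenic DN3 replicate 2 or transgenic DN3 replicate 3 was left out. Those of Fyn and Zap70 were also lost without wild-type or transgenic DN3 replicate 1, and those of Zap70 and Sh2d1a without transgenic DP replicate 2. The call for Sh2d1a was further lost without transgenic DP replicate 1 or wild-type DP replicate 2 or 3, and the highest adjusted p by edgeR over these fits was 0.0912 for Fyn, 0.0937 for Zap70 and 0.104 for Sh2d1a. Of 16 T-lineage and coreceptor factors, 10 were higher in transgenic DN3 (15.9% of all genes), the interaction passed for 5, all lower, with and without the doubted library, and Tox and Ikzf1 failed to switch.

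**Figure D3:**
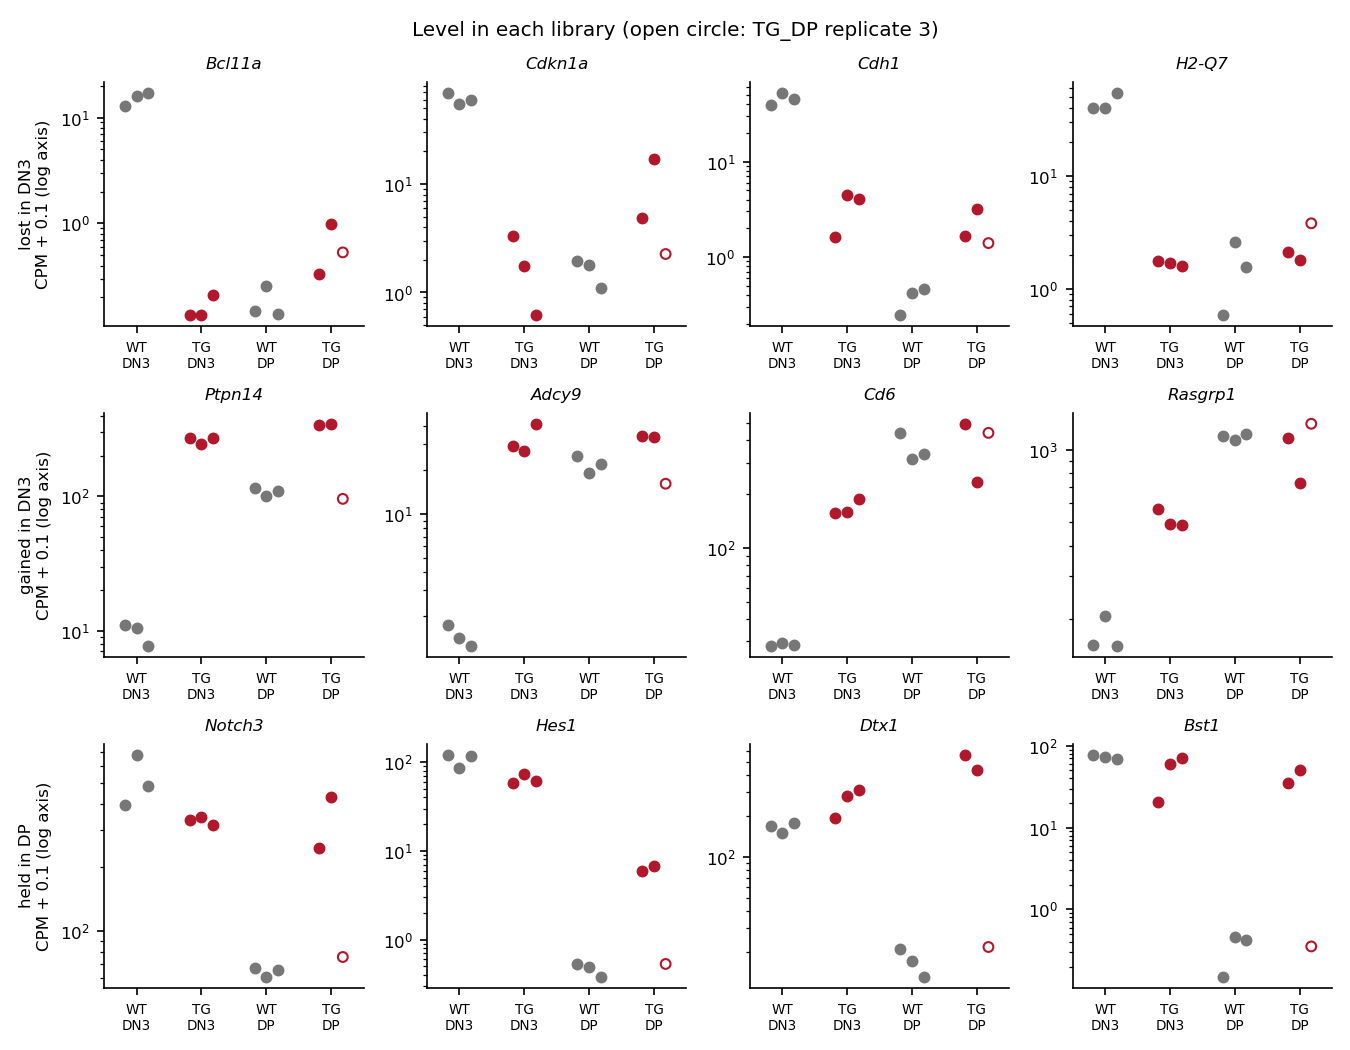
Each point is 1 library's level in CPM plus 0.1 on a log axis, by group, for 4 genes low in transgenic DN3 (Bcl11a, Cdkn1a, Cdh1, H2-Q7), 4 high in transgenic DN3 (Ptpn14, Adcy9, Cd6, Rasgrp1) and 4 held in transgenic DP (Notch3, Hes1, Dtx1, Bst1). The open circle is the library labelled TG_DP replicate 3, which lies with or near wild-type DP for Hes1 (0.433 CPM) and Bst1 (0.252 CPM).

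Of the Notch list, Notch3 and Hes1 were among the genes that normally fall and were altered mainly in DP with all libraries. Notch3, a receptor, was 393, 681 and 483 CPM in wild-type DN3, 335, 347 and 318 in transgenic DN3, 67.4, 60.6 and 65.9 in wild-type DP, and 247, 430 and 75.5 in transgenic DP. Transgenic DP replicates 1 and 2 were within or near the range of DN3 cells, while the library labelled TG_DP replicate 3 was just above wild-type DP. The wild-type step was -3.01 ± 0.47, the transgenic step -0.41 ± 0.44, and the interaction 2.60 ± 0.63 (edgeR adjusted p = 0.029). Without that library the transgenic step was 0.02 ± 0.24 and the interaction 3.03 ± 0.33 (edgeR adjusted p = 0.000293).

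Hes1, a transcriptional repressor directly induced by Notch, was 84.8 to 121 CPM in wild-type and 58.2 to 72.5 in transgenic DN3. In DP it was 0.434, 0.397 and 0.278 CPM in wild type and 5.78, 6.66 and 0.433 in transgenic libraries, so it was lower in DP in both genotypes but further down in wild type. The Hes1 interaction was 4.27 ± 0.96 (edgeR adjusted p = 0.0236; 4.82 ± 0.30 and 7.76e-06 without the library labelled TG_DP replicate 3). Notch1, the receptor that directs T-lineage commitment, was 253, 271 and 261 CPM in wild-type DP and 1192, 1058 and 318 in transgenic DP. Its interaction of 1.12 ± 0.50 did not pass with all libraries (edgeR adjusted p = 0.154) and was 1.51 ± 0.23 without that library (edgeR adjusted p = 0.00197). Dtx1, a Notch target that encodes the ubiquitin ligase Deltex 1, was 149 to 176 CPM in wild-type DN3, 193 to 307 in transgenic DN3, 21.0, 17.3 and 13.0 in wild-type DP, and 561, 435 and 21.7 in transgenic DP. Its transgenic DP replicates 1 and 2 were above every DN3 library. The Dtx1 interaction was 3.65 ± 1.10 with all libraries (edgeR adjusted p = 0.0581) and 4.20 ± 0.31 without the library labelled TG_DP replicate 3 (edgeR adjusted p = 2.06e-05).

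Of 15 Notch receptors and targets tested, 11 fell and 2 rose in wild type (28.2% and 27% of all genes), and 7 fell and 1 rose in transgenic cells (21% and 21%). The interaction passed as higher for 4 and as lower for 2, against 4.88% and 5.29% of all genes. Without the library labelled TG_DP replicate 3 it passed for 8 and 3, against 10.9% and 9.57%. The median interaction was 1.12 with all libraries and 1.48 without that library. The median step was -2.93 in wild type and -1.10 in transgenic cells. The members that failed to switch were Notch3, Hes1, Ptcra and Trib2, the last in the rising direction, and Notch1, Heyl and Dtx1 were added without that library. Among all genes that normally fall or rise at least 2-fold, 12.9% and 17.5% failed, or 25.7% and 24.6% without that library. With that library kept, the Notch3 and Hes1 calls were lost, with adjusted p of up to 0.0714 and 0.0754, without any 1 of transgenic DN3 replicates 1 and 3, wild-type DN3 replicates 1 and 3 and wild-type DP replicates 2 and 3, and for Notch3 also without transgenic DN3 replicate 2 or transgenic DP replicate 1. Markers of the DN3 sort, which share Ptcra and Hes1 with it, moved with this list: of 8, 6 were higher in transgenic than in wild-type DP (4.1% of all genes), and their summed level was 279, 509 and 131 CPM in transgenic DP against 85.5 to 91.1 in wild-type DP and 2490 to 2966 in transgenic DN3. Leaving out the doubted library gave 7 of the 8 as higher in DP, against 2176 of 12685 genes. Il2ra, which encodes the CD25 chain by which DN3 cells are sorted, was 39.6, 57.8 and 23.4 CPM in transgenic DP and 13.0, 11.8 and 13.6 in wild-type DP, a difference of 1.65 ± 0.25 (edgeR adjusted p = 0.0307). Cpa3 stood at 0.541% of its transgenic DN3 level in transgenic DP replicate 1 and at 26.9% in replicate 2; Notch3 and Hes1 were higher in replicate 2, and Notch1 and Dtx1 in replicate 1. The part of these transcripts in the result was not tested.

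Other genes were higher in transgenic DP with the same pattern over libraries. Bst1, an ectoenzyme of early lymphoid cells, was 0.0483, 0.357 and 0.318 CPM in wild-type DP and 35.3, 50.2 and 0.252 in transgenic DP, against 20.5 to 77.7 in the 6 DN3 libraries. Arhgef10l, a guanine nucleotide exchange factor, was 0.676, 0.317 and 0.318 CPM in wild-type DP and 44.7, 30.4 and 0.613 in transgenic DP, against 60.8 to 77.1 in wild-type DN3 and 8.80 to 22 in transgenic DN3. Transgenic replicates 1 and 2 were within the DN3 range for Bst1 and between the DN3 groups for Arhgef10l, and the doubted library was within the wild-type DP range for both. Without it the transgenic step of Arhgef10l was a rise of 1.5 ± 0.36 on the log2 scale (edgeR adjusted p = 0.00601). The interaction was 7.35 ± 1.78 for Bst1 and 8.26 ± 1.54 for Arhgef10l (edgeR adjusted p = 0.0304 and 0.0114), and 7.93 ± 0.71 and 8.84 ± 0.58 without it. The Bst1 call was lost, with adjusted p of up to 0.0888, without any 1 of the transgenic DN3 replicates, wild-type DN3 replicates 1 and 3 or wild-type DP replicates 2 and 3.

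Lists of biosynthetic genes had smaller median steps in transgenic cells. So did the 2203 genes that normally fall at least 2-fold, at -1.80 in wild type and -1.13 in transgenic cells with all libraries. A smaller step is therefore not particular to these lists. Odc1, the rate-limiting enzyme of polyamine synthesis, was 48.0 to 56.3 CPM in wild-type DP and 88.5, 100 and 61.4 in transgenic DP, with an interaction of 1.29 ± 0.24 (edgeR adjusted p = 0.00838). Tpi1, a glycolytic enzyme, was 41.8 to 51.8 CPM in wild-type DP and 90.3, 130 and 59.1 in transgenic DP, with an interaction of 1.52 ± 0.33 (edgeR adjusted p = 0.0173; 0.0572 without wild-type DN3 replicate 1). In all 3 libraries labelled transgenic DP both genes were above wild-type DP, least in the doubted one, and without it the interactions were 1.47 ± 0.19 for Odc1 and 1.76 ± 0.25 for Tpi1. Of 21 ribosome biogenesis genes, 20 fell in wild type and 19 in transgenic cells (28.2% and 21% of all genes), with a median step of -1.93 and -1.39. The interaction passed for 3 of them (4.88% of all genes were higher), and for 8 without the doubted library (10.9%), all higher. The 3 were Odc1, which is on this list, Rrp9 and Nop16. The Rrp9 and Nop16 calls were lost in 8 and 9 of the 12 fits that left out 1 library. Only Odc1 failed to switch, against 12.9% of all genes that normally fall at least 2-fold. Without the doubted library 5 failed, against 25.7%. For 15 glycolysis genes the median step was -0.53 in wild type and -0.19 in transgenic cells. The interaction passed as higher for 1 and as lower for 1 with all libraries (4.88% and 5.29% of all genes). Without the doubted library it passed for 8 and 1 (10.9% and 9.57%). For 18 cholesterol synthesis genes the median step was -0.96 and -0.35. The interaction passed for 1 with all libraries (4.88%) and for 5 without the doubted library (10.9%), all higher.

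The class I antigen presentation list had a median step of -0.92 in wild type and 0.36 in transgenic cells. H2-K1, a classical class I heavy chain, was 438, 381 and 520 CPM in wild-type DN3, 159, 93.3 and 106 in transgenic DN3, 42.4, 49.0 and 38.2 in wild-type DP and 53.7, 56.7 and 57.3 in transgenic DP. H2-Q7, a nonclassical class I gene, was 39.7 to 54.6 CPM in wild-type DN3 and 1.51 to 1.66 in transgenic DN3. Psmb9, an immunoproteasome subunit, was 53.9 to 69.1 CPM in wild-type DN3, 39.7 to 45.2 in transgenic DN3, 23.7, 24.7 and 24.1 in wild-type DP and 38.1, 39.8 and 35.8 in transgenic DP. For Psmb9 the library labelled TG_DP replicate 3 lay beside the other transgenic ones and above all wild-type DP libraries. The interaction was 2.27 ± 0.28 for H2-K1, 5.55 ± 0.62 for H2-Q7 and 1.26 ± 0.18 for Psmb9 (edgeR adjusted p = 0.000826, 0.00054 and 0.00212), and 2.25 ± 0.29, 5.13 ± 0.57 and 1.29 ± 0.19 without the doubted library.

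Of the 17 class I and peptide-loading genes, 9 fell and 3 rose in wild type (28.2% and 27% of all genes), and 2 fell and 6 rose in transgenic cells (21% and 21%). The interaction passed for 8 (4.88% of all genes were higher) and for 11 without the doubted library (10.9%), all higher. H2-K1, H2-Q6, H2-Q7, Psmb9 and Psmb10 failed to switch, and B2m, the light chain of class I molecules, was added without it. Among all genes that normally fall at least 2-fold, 12.9% failed, or 25.7% without the doubted library. The Psmb10 call was lost without any 1 of 7 libraries (transgenic DN3 replicates 1 and 2, transgenic DP replicate 1, wild-type DN3 replicates 1 and 3 and wild-type DP replicates 2 and 3), with adjusted p of up to 0.0908. Reads of H2-K1, H2-Q4, H2-Q6 and H2-Q7 may be shared between these near-identical genes, so the single values are uncertain. Of 29 interferon-stimulated genes, 22 fell in wild type and 18 in transgenic cells (28.2% and 21% of all genes). The interaction passed for 2, both higher (4.88%), or for 4 as higher and 1 as lower without the doubted library (10.9% and 9.57%). Bst2, which encodes the antiviral protein tetherin, and Ifi44 failed to switch in both fits, against the same 12.9% and 25.7%. Ifi44 had 2 reads in total in the group where it was lowest.

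Genes that normally rise but were lower in transgenic DP cells were the smallest class. Itm2a, a membrane protein induced on thymocyte selection, was 25.7, 26.4 and 24.9 CPM in wild-type DN3, 33.6, 46.8 and 43.9 in transgenic DN3, 84.7, 78.2 and 79.6 in wild-type DP, and 52.7, 42.2 and 52.4 in transgenic DP. The groups as labelled did not overlap at either stage, and the doubted library lay with the other transgenic DP libraries. The wild-type step was 1.66 ± 0.15, the transgenic step 0.24 ± 0.14, and the interaction -1.41 ± 0.20 (edgeR adjusted p = 0.0021; -1.46 ± 0.22 without the library labelled TG_DP replicate 3).

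Cd69, an activation marker that rises as DP cells receive receptor signals, was 38.2, 48.5 and 52.0 CPM in wild-type DP and 20.8, 11.2 and 32.7 in transgenic DP, all below wild type. Its interaction was -1.63 ± 0.41 (edgeR adjusted p = 0.0299) and -2.06 ± 0.32 without the library labelled TG_DP replicate 3 (0.00228). With that library kept, the Cd69 call was lost without any 1 of 8 others (the transgenic DN3 replicates, transgenic DP replicate 1, wild-type DN3 replicates 1 and 3 and wild-type DP replicates 2 and 3), with adjusted p of up to 0.0908. Themis, a T-cell signalling regulator needed for positive selection, was 748, 1242 and 1242 CPM in wild-type DP and 345, 445 and 927 in transgenic DP. The Themis interaction passed without the library labelled TG_DP replicate 3, at -1.80 ± 0.29 (edgeR adjusted p = 0.00288), and not with it (-1.26 ± 0.44, 0.0791).

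Some genes of this kind were decided by that library. Adam12, a metalloprotease, was at most 0.262 CPM in the 6 DN3 libraries, 103, 111 and 120 in wild-type DP, and 2.45, 0.723 and 95.2 in transgenic DP. Car2, carbonic anhydrase 2, was 15.1, 12.6 and 12.8 CPM in wild-type DP and 1.38, 0.775 and 13.1 in transgenic DP. Abca1, a cholesterol efflux transporter, was 48.7, 70.6 and 91.2 CPM in wild-type DP and 7.38, 9.97 and 120 in transgenic DP. Each was far below wild type in transgenic replicates 1 and 2 and at or near wild-type level in the library labelled replicate 3. That library was below the wild-type DP range for Adam12 and above it for Abca1. The interaction did not pass with all libraries (edgeR adjusted p = 0.858, 0.223 and 0.639 for Adam12, Car2 and Abca1) and was -5.56 ± 1.60, -4.61 ± 0.78 and -3.44 ± 0.79 without it (0.0341, 0.00326 and 0.0155).

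Eps8l1, an actin regulator, has no wild-type step (29.0 to 42.4 CPM in wild-type DP and 17.1 to 40.8 in wild-type DN3). It had 0 reads in transgenic DP replicates 1 and 2, at least 218-fold lower than the wild-type DP mean at a floor of 3 reads per library, and 31.2 CPM in the library labelled TG_DP replicate 3. Over the 502 genes that were altered mainly in DP in the fit without that library, its level was nearer to wild-type DP than to the other transgenic DP libraries for 419 (83.5%). It lay outside the wild-type range on the same side for 256 of them, against 494 outside it for transgenic DP replicate 1, a library that had been used to choose them.

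**Figure D4:**
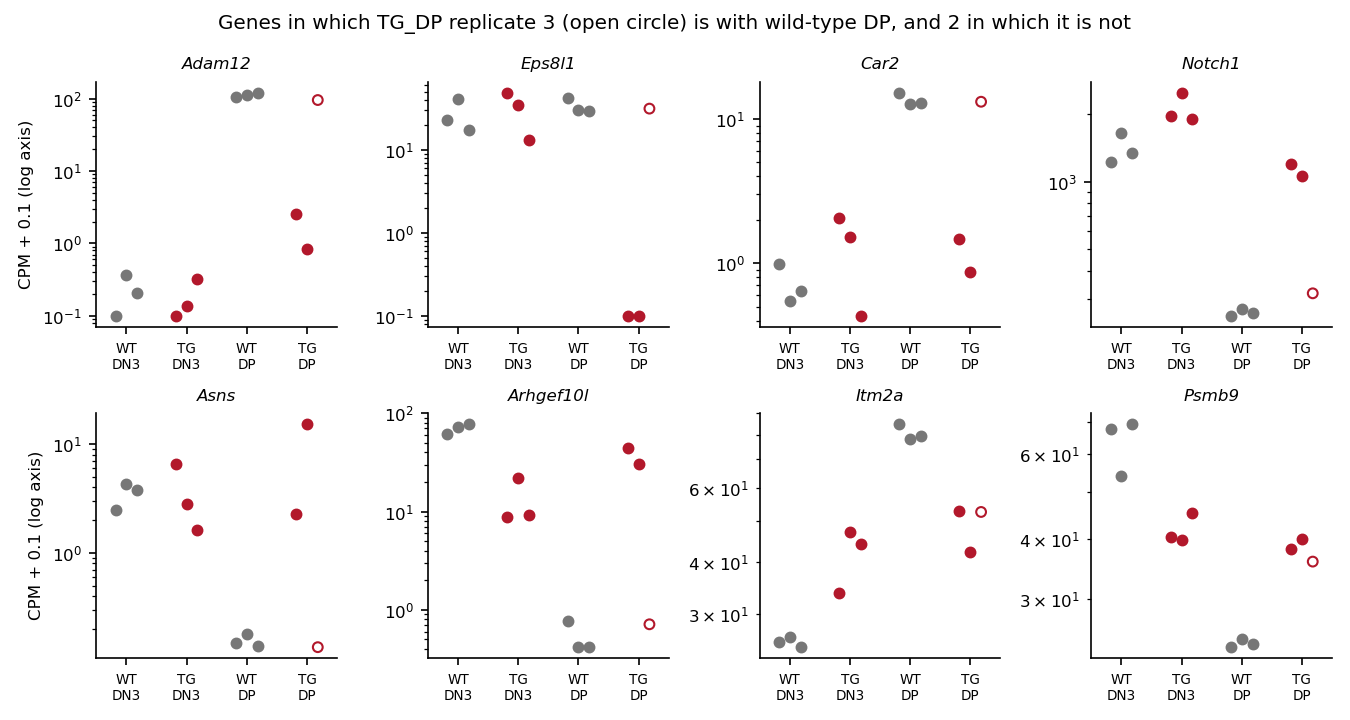
Levels per library in CPM plus 0.1 on a log axis, by group; the open circle is the library labelled TG_DP replicate 3. It lies with or near wild-type DP for Adam12, Eps8l1, Car2, Notch1, Asns and Arhgef10l, though above the wild-type DP range for Notch1 (318 CPM) and below it for Adam12 (95.2 CPM). It lies with the other transgenic DP libraries for Itm2a (52.4 CPM) and Psmb9 (35.8 CPM).

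Most of the DP programme still switched on. All 26 genes of this list rose in wild type and 21 rose in transgenic cells (27% and 21% of all genes), with a median step of 3.33 and 2.59. Cd4 was 1910 to 2911 CPM in wild-type DP and 2036 to 2641 in transgenic DP. Rag1, a recombinase subunit, had a wild-type step of 3.41 ± 0.30 and a transgenic step of 4.22 ± 0.31. The interaction did not pass for Cd4 or Rag1 (-1.28 ± 0.73 and 0.81 ± 0.39). For Rag2 it passed as higher, at 2.17 ± 0.46 (edgeR adjusted p = 0.0166), or 1.75 ± 0.38 without the doubted library (0.0107). Rag2 was 8.41 to 19.7 CPM in transgenic DN3 against 116 to 131 in wild-type DN3. Cd8a had an interaction of -2.56 ± 0.45 (edgeR adjusted p = 0.0063): it was 2673 to 3573 CPM in transgenic and 2893 to 3813 in wild-type DP, and 26.3 to 68.6 against 6.53 to 12 in DN3 (-2.58 ± 0.49 without the doubted library). The interaction passed as lower for 7 of the 26 and as higher for 2 (5.29% and 4.88% of all genes), or 9 and 2 without the doubted library (9.57% and 10.9%). Cd6, Cd69 and Itm2a failed to switch, 3 of the 26, against 17.5% of all genes that normally rise at least 2-fold. Without the doubted library Themis and Slamf1 were added, giving 5 of the 26, against 24.6%.

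Other groups are given by their counts, to be read against 4.88% of all genes with a higher and 5.29% with a lower interaction, or 10.9% and 9.57% without the doubted library. Of all genes that normally rise or fall at least 2-fold, 17.5% and 12.9% failed to switch (24.6% and 25.7% without that library). Of 17 DN3 and early progenitor regulators, 12 fell in wild type and 10 in transgenic cells, the median step was -3.21 and -1.20, and the interaction passed for 4, all higher, which also failed to switch: Bcl11a, Spib, Mef2c and Hoxa7. Leaving out the doubted library also gave 4, all higher, of which Bcl11a, Spib and Mef2c failed to switch. The Hoxa7 interaction was 6.07 ± 1.56 with that library and 2.83 ± 1.36 without it. Its call was lost without any 1 of 8 libraries, among them the library labelled TG_DP replicate 3, with adjusted p of up to 0.154; the other 7 were the transgenic DN3 replicates, wild-type DN3 replicates 1 and 3 and wild-type DP replicates 2 and 3. Of 34 cell-cycle genes, 0 passed by edgeR's quasi-likelihood test, with 7 higher and 1 lower at an unadjusted p under 0.05; DESeq2 passed 4 higher and 1 lower, limma voom 13 and 4, and edgeR without the library labelled TG_DP replicate 3 passed 6, all higher. Of 15 CDK inhibitors and p53 targets, Cdkn1a and Zmat3, a p53 target that normally rises, failed to switch, and the interaction passed as higher for 1 and as lower for 3. Leaving out the doubted library gave 2 and 5, and Cdkn1b, Mdm2, Phlda3 and Trp53inp1 were added to the genes that failed to switch. For 13 LMO2 partner genes it passed as higher for 1 and lower for 4, or 2 and 2 with upper-quartile factors, and 2 and 4 of 15 without the doubted library, and none failed to switch in the fits with and without that library. Among 8 gamma-delta and innate-like genes, 3 passed as higher and 1 as lower with and without the doubted library, the median interaction was 2.60, and the median step was lower in transgenic (-2.56) than in wild-type cells (-1.45), so the median interaction and the difference of the median steps have opposite signs. Of 14 V(D)J recombination genes 1 passed in each direction (2 higher and 1 lower without the doubted library), of 14 BCL2 family genes 1 as higher (3 without it) and of 15 immediate-early genes 1 as lower (2 without it). Of 21 cytokine receptor and JAK-STAT genes 4 passed as higher and 3 as lower (4 and 4 without it), and of 13 chemokine receptor and adhesion genes 2 and 3 in both fits. Among the E protein inhibitors Id1, Id2 and Id3, listed together with the E protein gene Tcf4, 1 of the 4 passed as higher, and 2 without the doubted library. The median interaction kept its sign under TMM, RLE and upper-quartile scaling for each list named here but the JAK-STAT one, which was -0.12 with TMM and 0 with upper-quartile factors.

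**Figure D5:**
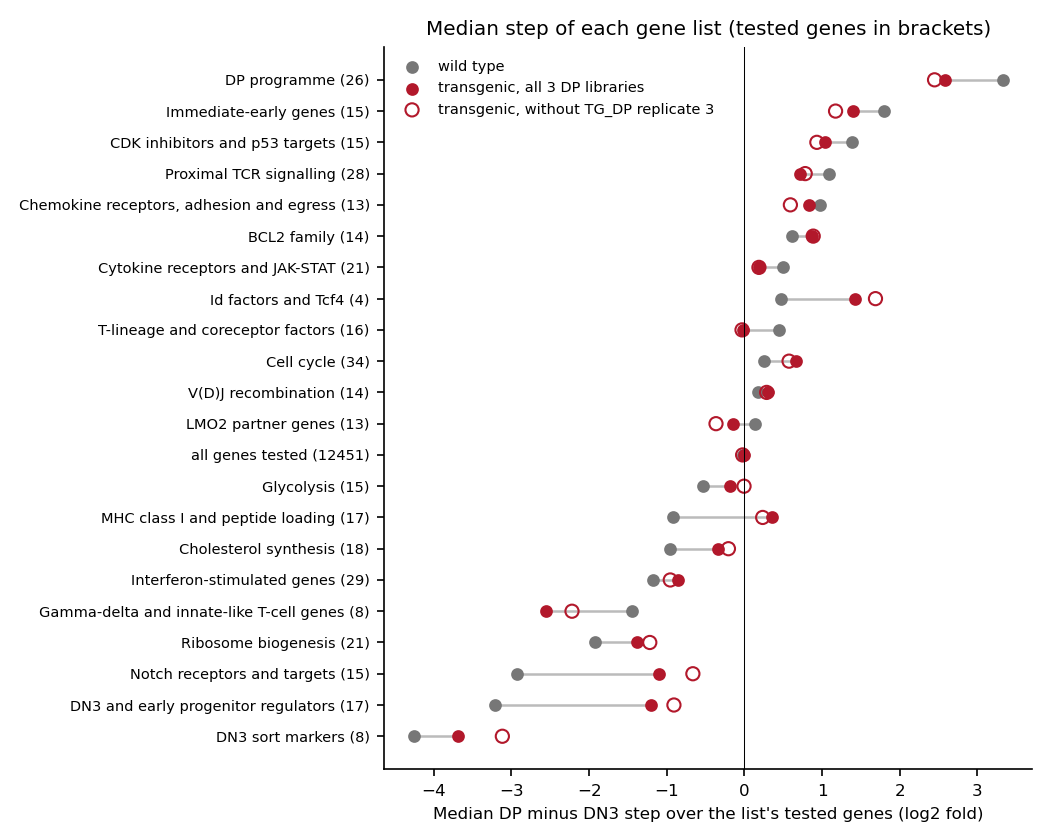
Median log2 step from DN3 to DP for 21 gene lists and for all genes tested; grey points are wild type, red points transgenic with all libraries, and open points transgenic without the library labelled TG_DP replicate 3. The Notch list moves from -2.93 in wild type to -1.10 and the class I list from -0.92 to 0.36, while all genes together lie near 0.

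Other interactions had no 2-fold wild-type step behind them. F2r, the thrombin receptor, was 7.56 to 13.3 CPM in wild-type DN3, 370, 289 and 378 in transgenic DN3, 18.1 to 21.2 in wild-type DP and 14.3 to 24.8 in transgenic DP. It was therefore apart in DN3 only, and the interaction was -4.98 ± 0.33 (edgeR adjusted p = 2.99e-05). Npas2, a clock-related transcription factor, was 6.28 to 7.67 CPM in wild-type DN3, 0.0354 to 0.147 in transgenic DN3, and 5.56 to 11 across the 6 DP libraries, with an interaction of 6.56 ± 0.59 (edgeR adjusted p = 0.000153). Socs3, an inhibitor of cytokine signalling, was 54.5 to 57.7 CPM in wild-type DN3, 14.4 to 18.7 in transgenic DN3, 43.8 to 47.2 in wild-type DP and 103, 98.3 and 43.0 in transgenic DP. For Socs3 the step of 2.26 ± 0.26 in transgenic cells passed the test and the wild-type step of -0.32 ± 0.25 did not, and the interaction was 2.59 ± 0.36 (edgeR adjusted p = 0.00159). The interactions without the doubted library were -4.79 ± 0.30 for F2r, 6.81 ± 0.53 for Npas2 and 2.89 ± 0.18 for Socs3.

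The DN3 differences were compared with 3 transgenic and 3 wild-type total DN libraries of the series, which are separate samples. For 79 of the 187 genes already low in transgenic DN3 (42.2%) the 3 transgenic DN libraries lay beyond the 3 wild-type ones in the same direction, and for 76 of the 265 already high (28.7%). The same held for 41.4% of all genes with a called DN3 difference and for 28.6% of all genes tested, so the first share is near that of called genes and the second is near that of all genes.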

How the data were processed

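Whole-number read counts per gene, deposited by the authors for all RNA libraries in 1 table, were used for 12 libraries, 3 in each of 4 groups taken from the labels. The submitters' processing notes name MACS2, Bowtie2, HISAT and DESeq2, with mm10 and mm9 as builds and no role for any of them; for the counting program, annotation, versions and strand setting, nothing was given in the sources used here. The table has 19521 genes; 25 symbols that a spreadsheet had turned into dates were restored by gene identifier, and 4 columns (2 of them counts) belong to samples not analysed here. A letter N ends 2 of the 12 column names and was ignored.

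Genes with enough reads (edgeR filterByExpr, minimum count 10 and total 15) were scaled by TMM and fitted with 1 mean per group in edgeR 4.0.16 (R 4.3.3, robust quasi-likelihood test); p-values were adjusted by Benjamini-Hochberg over all genes tested, with a threshold of 0.05. Standard errors are the log2 change divided by the square root of the F statistic. Log2 changes use edgeR's prior count of 0.125. The interaction test was run on simulated counts with known interactions. They had otherwise equal group means, the same spread between libraries for every gene and no deviating library. That check cannot show how the test behaves on these libraries. Alternatives were DESeq2 1.42.0, limma 3.58.1 (voom with sample quality weights), other scalings, no filter, blocks, a fit of all 40 RNA libraries and each library left out.

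The comparison, the gene lists and the tests were chosen with earlier results of these data known. Named genes are Lmo2; the 12 largest interactions in each direction with a mean of at least 5 CPM in a group and more than 3 reads in every group; the 10 largest among failing genes in each direction; and per list up to 4 members with the smallest p and every failing member. Promoter sequences are from RefSeq (GRCm38.p6), where all 4 genes printed were matched by gene identifier. The same ranks in the fit without the library labelled TG_DP replicate 3 added genes such as Adam12, Car2, Abca1 and Eps8l1, and this addition, like the naming of Cd4, Cd8a and Lyl1, was made after their values were seen. The text describes only some of the genes so named. Total counts of 21771319 or more per library limit precision only for genes of a few reads, such as Bcl11a in transgenic DN3 cells.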

Additional observations from a re-analysis of the deposited data

Results flagged for a closer look

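The genotype effect differed between DN3 and DP, by the interaction test of edgeR's quasi-likelihood fit with Benjamini-Hochberg adjustment, for 1266 genes with all 12 libraries and for 2598 without the library labelled TG_DP replicate 3. The interactions that were largest on the positive side, on the log2 scale, were Bcl11a 10.39, Arhgef10l 8.26, Cdkn1a 7.47, Bst1 7.35, Adam11 6.93, Cdh1 6.57, Npas2 6.56, Wdfy4 6.44, Casp1 6.35, Duxbl2 6.16, Hoxa7 6.07 and Adamtsl2 5.83. Those largest on the negative side were Podxl -5.70, Slc40a1 -5.49, Lsmem1 -5.40, Fam184b -5.36, St8sia6 -5.27, F2r -4.98, Rps6ka6 -4.85, Pkd1l3 -4.51, Adcy9 -4.21, Shc4 -3.85, P2rx7 -3.82 and B4galnt2 -3.75. Duxbl2 belongs to a family of near-identical copies, and Rps6ka6 had 0 reads in transgenic DP replicates 1 and 2, so both values are uncertain. Other sizes also rest on few reads. In the group where each was lowest, Hoxa7 and Podxl had 4 reads in total and Bcl11a 5. Npas2 had 7, Fam184b and Lsmem1 9, Casp1 10 and Adam11 12, so the order by size is uncertain. Without the library labelled TG_DP replicate 3, Hoxa7 was 2.83 (edgeR adjusted p = 0.154). The calls of some of these genes were lost in fits that left out 1 library: Hoxa7 and P2rx7 in 8 of 12 such fits, Bst1 and Podxl in 7, Duxbl2 and St8sia6 in 6, Rps6ka6 in 9 and Slc40a1 in 2 (without wild-type DN3 replicate 1 or 3).

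Adam11 and Wdfy4 followed the pattern of low transgenic DN3 levels. Adam11, a catalytically inactive member of the ADAM family, was 20.4 to 22.6 CPM in wild-type DN3 and 0.106 to 0.177 in transgenic DN3. Wdfy4 was 62.3 to 98.0 CPM in wild-type DN3 and 1.84 to 3.99 in transgenic DN3. Slc40a1, the iron exporter ferroportin, was 17.2 to 27.9 CPM in transgenic DN3 against 0.110 to 0.673 in wild type.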

How the results depend on the processing

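Leaving out 1 library at a time gave 352 to 2598 genes with an interaction and 212 to 1042 that fail to switch, 5752 to 7331 with a wild-type step and 4199 to 5901 with a transgenic step. For genes with an interaction and genes that fail to switch, DESeq2 gave 2295 and 905, limma voom with sample quality weights 6555 and 1709, the fit of all 40 RNA libraries 553 and 307, and DESeq2 without the library labelled TG_DP replicate 3, chosen after seeing the data, 3354 and 1159. A term for the letter N gave 1991 interactions, and keeping only transgenic DP replicate 1, also chosen after seeing the data, 2147. No filter gave 1038 and 519. The cause was not tested.

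The replicate block within genotype gave 547 and 312, and the replicate block over all groups 1112 and 537. Same-numbered libraries share only a number: the correlations of their deviations ran from -0.122 to 0.251.

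Of 99 named genes past the threshold, 57 kept their call in every fit that left out 1 library, 99 with DESeq2, 97 with limma voom and 56 in the fit of all 40 libraries. Hoxa7 reversed to -1.08 with only transgenic DP replicate 1, and Hbb-bt, one of several near-identical globins, was 1.64 with limma voom, opposite to edgeR.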
